A study of Mus musculus with 2 samples.

Results

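B16F10 is a mouse melanoma line that the labels describe as a highly metastatic subclone, and B16F0 is the parental line. Single cells of both were profiled in droplets with a kit that reads the 3' ends of messenger RNA, each molecule carrying a unique molecular identifier (UMI). The authors' deposited cell table gives each cell a cycling class and a Kdm5b class. The comparison here sets the 77 B16F10 cells called both non-cycling and Kdm5b high against the 267 called non-cycling and Kdm5b low, called high and low cells below. Together they are the 344 non-cycling cells among 1574 B16F10 cells, of 4156 cells in all, and the labels name no treatment. The same classes of B16F0, 91 Kdm5b-high and 1080 Kdm5b-low non-cycling cells, serve for values side by side. Each line is 1 library, so the classes hold cells of 1 culture and not replicates, no difference has a replicate check, and no test was made. Intervals cover counting error only.

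KDM5B is a demethylase that removes methyl groups from lysine 4 of histone H3, a mark of active promoters. In melanoma it is known as a marker of a slow-cycling cell state. Several genes described below belong to the response to low oxygen, in which the transcription factor HIF-1 binds a short DNA motif with the core letters ACGTG or GCGTG and raises genes of glycolysis, mitophagy and oxidative protein folding. This is background and not a reading of these data.

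Kdm5b made the classes and is left out of every result. The Kdm5b-high cells held 2 to 6 Kdm5b UMIs each, with a median of 3, and the Kdm5b-low cells held 0 to 3, with a median of 1 and 128 cells at 0. On the deposited natural log scale the lowest Kdm5b-high cell stood at 0.413 and the highest Kdm5b-low cell at 0.509. The ranges overlap: 14 Kdm5b-high cells lay at or below that highest Kdm5b-low value, and 20 Kdm5b-low cells lay at or above that lowest Kdm5b-high value. The sources used here do not give how the class was made. Many cells of the classes differ by only 1 or 2 UMIs of Kdm5b.

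Depth differed little between the classes. The Kdm5b-high cells held 2433408 UMIs in all, with 31603 ± 10424 UMIs per cell (SD over 77 cells) and a median of 30590. The Kdm5b-low cells held 8729374 UMIs, with 32694 ± 11302 per cell (SD over 267 cells) and a median of 30183. Mitochondrially encoded transcripts took a median of 7.56% of a Kdm5b-high cell's UMIs and 7.74% of a Kdm5b-low cell's, and ribosomal protein transcripts took 28.8% in high and 29.0% in low cells. The 7 identity genes of the line (Mitf, Sox10, Pmel, Dct, Tyr, Tyrp1 and Mlana) summed to 7474 counts per 1000000 UMIs (CPM) in Kdm5b-high cells and 7716 CPM in Kdm5b-low cells. Markers of other cell types were near 0 in both classes: those for fibroblasts summed to 4.93 CPM in high and 6.99 CPM in low cells, for macrophages to 9.04 CPM in high and 9.51 CPM in low cells, and for keratinocytes to 0.822 CPM in high and 0.802 CPM in low cells. The endothelial markers summed to 138 CPM in high and 149 CPM in low cells through Egfl7 and Eng, while Pecam1 stood at 0.411 CPM in high and 0.573 CPM in low cells. The listed markers of T and NK cells and of erythroid cells are not among the genes of the deposited counts. They could not be assessed.

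Nor did the authors' other readouts separate the classes by much. Their cluster C3 held 63 of the 77 Kdm5b-high cells (81.8%, exact 95% binomial interval 71.4 to 89.7) and 217 of the 267 Kdm5b-low cells (81.3%, 76.1 to 85.8). Their trajectory state 7 held 93.5% of Kdm5b-high cells (85.5 to 97.9) and 86.5% of Kdm5b-low cells (81.8 to 90.4). The authors' MITF score averaged -0.0387 ± 0.287 in high cells and -0.0338 ± 0.269 in low cells (SD over 77 and 267 cells). The median S phase score was -0.191 in high and -0.170 in low cells, the median G2/M score -0.228 in high and -0.232 in low cells, and the median pseudotime 15.9 in high and 15.8 in low cells. Non-cycling cells are those with S and G2/M scores at or below 0, so the closeness of those scores was set in part in advance.

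Among genes with at least 50 CPM in either class, the 2 largest ratios were those of Bnip3 and Ero1l, genes of the low oxygen response, so the promoter windows of the 4 of them that were at least 1.5-fold higher are shown here. The windows come from RefSeq on GRCm38.p6, run from 250 bases before to 50 bases after the start of the gene, and lie on the minus strand at chr7:138909457-138909756 for Bnip3, chr14:45318523-45318822 for Ero1l (named Ero1a in RefSeq), chr9:121857747-121858046 for Higd1a and chr16:36071512-36071811 for Fam162a. They are written 5' to 3' along the gene, and capitals mark the ACGTG form of the core motif, searched as ACGTG and as its reverse complement CACGT. The GCGTG form was not searched and stands in lower case where it occurs, so the motif below is the ACGTG form alone.
Bnip3: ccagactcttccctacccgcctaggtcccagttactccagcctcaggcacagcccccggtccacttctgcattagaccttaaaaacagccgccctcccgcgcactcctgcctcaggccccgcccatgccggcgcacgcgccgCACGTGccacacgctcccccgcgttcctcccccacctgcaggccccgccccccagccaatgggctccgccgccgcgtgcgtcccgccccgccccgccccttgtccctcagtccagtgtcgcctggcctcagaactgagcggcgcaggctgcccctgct
Ero1l: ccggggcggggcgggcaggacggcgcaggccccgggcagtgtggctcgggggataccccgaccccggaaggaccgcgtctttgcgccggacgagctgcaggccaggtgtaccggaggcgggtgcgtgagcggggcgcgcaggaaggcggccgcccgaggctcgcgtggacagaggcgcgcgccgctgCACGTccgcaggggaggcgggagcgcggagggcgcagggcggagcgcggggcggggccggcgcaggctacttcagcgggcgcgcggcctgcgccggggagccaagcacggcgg
Higd1a: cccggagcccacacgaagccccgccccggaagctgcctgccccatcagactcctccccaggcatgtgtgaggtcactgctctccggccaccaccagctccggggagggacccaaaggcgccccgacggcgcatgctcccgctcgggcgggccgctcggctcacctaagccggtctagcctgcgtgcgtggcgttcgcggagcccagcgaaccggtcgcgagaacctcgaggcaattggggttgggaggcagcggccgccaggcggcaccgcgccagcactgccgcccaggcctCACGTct
Fam162a: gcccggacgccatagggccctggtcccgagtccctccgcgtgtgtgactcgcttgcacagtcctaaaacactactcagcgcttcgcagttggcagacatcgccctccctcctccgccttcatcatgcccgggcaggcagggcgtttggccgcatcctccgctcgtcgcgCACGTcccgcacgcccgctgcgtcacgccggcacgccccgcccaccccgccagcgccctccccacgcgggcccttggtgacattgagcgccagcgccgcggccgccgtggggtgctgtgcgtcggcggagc
In Bnip3 the motif stands on both strands at once, in the run CACGTG, which is also an E-box. The first marked base lies at -108 in Bnip3, at -63 in Ero1l, at 44 in Higd1a and at -81 in Fam162a, relative to the start. The ACGTG form was found in 19.6% of all 32851 windows in the table and in 8 of the 15 genes at least 1.5-fold higher in Kdm5b-high cells that have a window there. Of the 2 genes at least 1.5-fold lower, only Car6 has a window, and it holds that form too. The first share covers windows of all genes, whatever their level here. The share among genes with at least 50 CPM was not computed, so these shares are not a like comparison. A match is a description of these letters and not a binding site.

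Summed over the cells of each class and scaled to CPM, 2581 genes reached 50 CPM in one class or both. Of these, 17 were at least 1.5-fold higher in Kdm5b-high cells, 0.659% of the genes, and 2 were at least 1.5-fold lower, 0.0775%. At 2-fold, 2 genes were higher (0.0775%), Bnip3 and Ero1l, and 0 were lower. With a minimum of 20 CPM, 55 of 5076 genes were higher by that fold (1.08%) and 25 lower (0.493%). Over the 2581 genes the log2 ratio, Kdm5b high over low, had a median of 0.02, and 55.1% of genes lay above 0. Of the 17 higher genes, 10 lay under 50 CPM in low cells and so entered the count through high cells alone. Depth was checked by comparing high cells with 154 low cells matched on UMIs per cell. Of the 17 genes, 10 remained past 1.5-fold there, while Fam162a, Grb14, Jun, Kctd12, Pgd, Pgm2 and Rnf19a lay above 0 but under it. With every cell thinned to 20815 UMIs, 13 of the 17 were past it, all but Jun, Pgm2, Rnf19a and Slc39a1. Both lower genes stayed past the limit in the matched comparison and 1 of them, Mbp, in the thinned one. Most genes had nearly the same summed level in both classes, and the plot of ratios against level shows the few outside.

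**Figure D1:**
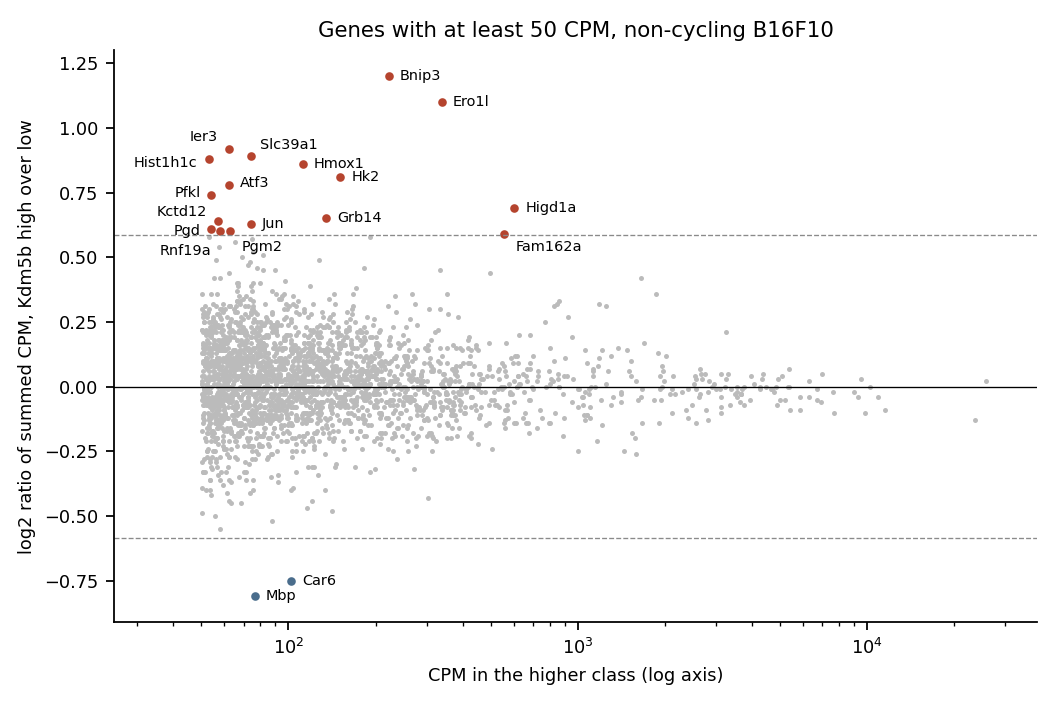
Each point is 1 of 2581 genes that reached 50 CPM in either class of non-cycling B16F10 cells, with its higher CPM on a log axis and its log2 ratio, Kdm5b high over Kdm5b low. Dashed lines mark 1.5-fold. The 17 higher and 2 lower genes past that fold are named, and Bnip3 and Ero1l stand above the others at 1.20 and 1.10.

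Bnip3 encodes a mitophagy receptor of the outer mitochondrial membrane and is a classical HIF target. It had 222 CPM (Poisson interval 204 to 241) in Kdm5b-high cells and 96.3 CPM (89.9 to 103) in Kdm5b-low cells, a log2 ratio of 1.20 (exact 95% conditional binomial interval 1.05 to 1.36). Counts per cell ran from 0 through a median of 0 to 48 UMIs in Kdm5b-high cells, and from 0 through a median of 0 to 65 UMIs in Kdm5b-low cells. The ranges of the classes overlap over their whole length, and the difference lies in the upper tail. The 90th percentile was 33 UMIs in Kdm5b-high cells, against 6 UMIs in Kdm5b-low cells. With each cell thinned to 20815 UMIs, 42.0% of Kdm5b-high cells (30.2 to 54.5) and 31.1% of Kdm5b-low cells (25.4 to 37.4) held a Bnip3 UMI, against 45.5% of high and 42.7% of low cells without thinning. The log2 ratio was 1.05 against depth-matched low cells and 1.27 in thinned cells. No cell type known to lack Bnip3 was cultured, and the background share from free RNA was therefore not measured.

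Ero1l, which encodes an oxidase that drives disulfide bond formation in the endoplasmic reticulum, had 339 CPM (316 to 363) in Kdm5b-high cells and 158 CPM (149.6 to 166) in Kdm5b-low cells, a log2 ratio of 1.10 (0.98 to 1.23). Its median was 3 UMIs per cell in both classes, with a highest cell of 70 UMIs among Kdm5b-high cells and 60 among Kdm5b-low cells. The classes again differed in the upper tail, with a 90th percentile of 39 UMIs in Kdm5b-high cells and 11 in Kdm5b-low cells. The log2 ratio was 0.97 against depth-matched low cells and 1.11 in thinned cells.

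Higd1a and Fam162a encode small mitochondrial proteins induced by low oxygen. Higd1a stood at 602 CPM in Kdm5b-high cells and 372 CPM in Kdm5b-low cells, a log2 ratio of 0.69 (0.60 to 0.78), with a median of 8 UMIs per cell and a 90th percentile of 60 in high cells, and 7 and 24 UMIs in low cells. Fam162a stood at 556 CPM in Kdm5b-high cells and 368 CPM in Kdm5b-low cells, a log2 ratio of 0.59 (0.50 to 0.69), with a median of 9 UMIs and a 90th percentile of 55 in high cells, and 7 and 30 UMIs in low cells. After thinning, 100% of high and 97.1% of low cells held a Higd1a UMI, so the classes differed little in the share of cells with a UMI. Fam162a lies just inside the 1.5-fold limit, and among the deeper cells alone its log2 ratio was 0.31. Just outside the limit were Bnip3l, a mitophagy receptor related to Bnip3, at 192 CPM in high and 128 CPM in low cells (0.58), and Plod2, a lysyl hydroxylase of collagen, also at 0.58.

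Of the 18 genes listed for the low oxygen response, 6 reached 50 CPM. All 6 did so in both classes. Of those, 4 were at least 1.5-fold higher, against 0.659% of all 2581 genes, and 0 were lower, against 0.0775%. The median log2 ratio of the 6 was 0.64, against 0.02 for all genes. Hif1a, the oxygen-regulated subunit of HIF-1 itself, was the member below 0, at 51.8 CPM in Kdm5b-high cells and 56.2 CPM in Kdm5b-low cells (-0.12, -0.41 to 0.17). The other 12 members lay under 50 CPM in both classes and outside the count. Among them Pdk1, a kinase that limits pyruvate entry into mitochondria, had 20.1 CPM in high and 11.0 CPM in low cells (0.87, 0.35 to 1.38), and P4ha2, a prolyl hydroxylase of collagen, 25.9 CPM in high and 14.1 CPM in low cells (0.88, 0.42 to 1.33). Vegfa, the angiogenic growth factor, had 22.6 CPM in high and 15.5 CPM in low cells (0.55, 0.07 to 1.01), Ddit4, an inhibitor of mTOR, 59 UMIs in high and 140 UMIs in low cells (0.60, 0.13 to 1.05), and P4ha1 46.4 CPM in high and 32.4 CPM in low cells (0.52, 0.19 to 0.84). Adm, the vasodilator peptide adrenomedullin, rests on 16 UMIs in Kdm5b-high cells and 11 in Kdm5b-low cells (2.38, 1.19 to 3.64). Intervals that include 0 were those of Egln1 (0.36), Ankrd37 (0.63), Ndrg1 (0.08), Kdm3a (0.06) and Car9 (-0.12), and Egln3 had 0 UMIs in Kdm5b-high cells and 4 in Kdm5b-low cells. These genes of low level were named after their values were seen, to account for the whole list.

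Summed over the list, the level was 2182 CPM in Kdm5b-high cells and 1335 CPM in Kdm5b-low cells, a log2 ratio of 0.71 (0.66 to 0.76). Single Kdm5b-high cells ran from 407 CPM through a median of 954 to 12315 CPM, and single Kdm5b-low cells from 206 through 819 to 12014 CPM. The plot of single cells shows the body of both classes in one range, from 766 to 1669.8 CPM for the middle 50% of high cells and from 683 to 1062 CPM for that of low cells, with a long upper tail. Above 2095 CPM, the 90th percentile of the Kdm5b-low cells, lay 18 of 77 Kdm5b-high cells (23.4%, 14.5 to 34.4) and, by construction, 27 of 267 Kdm5b-low cells (10.1%). Only 1 Kdm5b-high and 5 Kdm5b-low cells lay within 10% of that limit. The cells above it had a median of 28618 UMIs among Kdm5b-high and 28576 among Kdm5b-low cells, and those at or below it 31198 among high and 30188 among low cells.

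**Figure D2:**
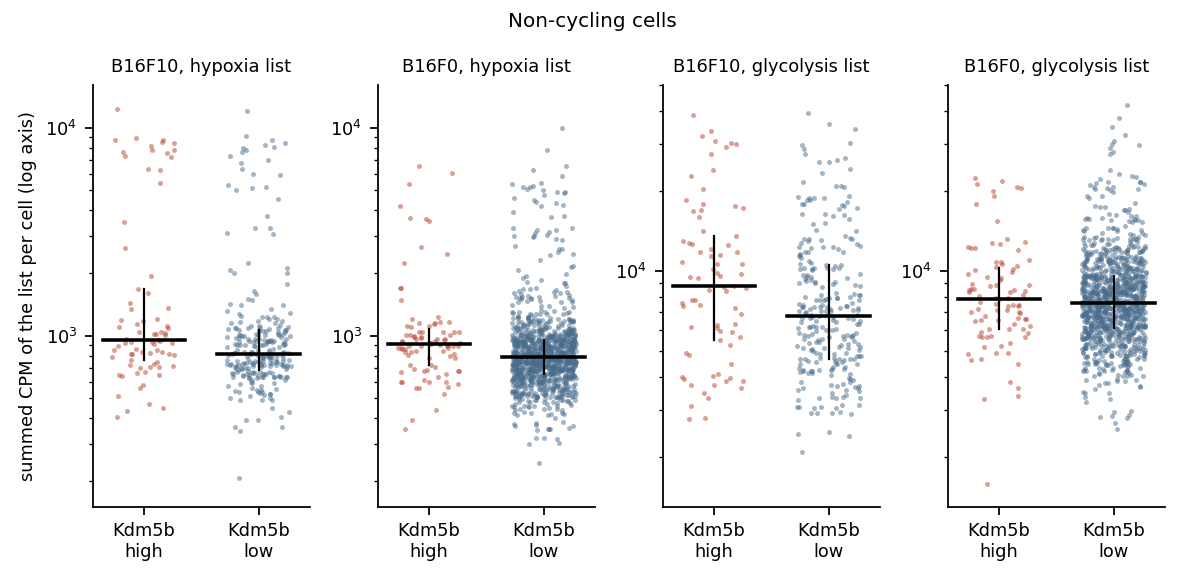
Each point is 1 non-cycling cell, with the summed CPM of a gene list in that cell on a log axis, for Kdm5b-high (left in each panel) and Kdm5b-low cells of B16F10 and B16F0. Thick lines are medians and thin lines run from the 25th to the 75th percentile over cells. In B16F10 the low oxygen list has medians of 954 CPM in high and 819 CPM in low cells, and 18 of 77 Kdm5b-high against 27 of 267 Kdm5b-low cells lie above 2095 CPM.

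The same cells tended to be high for several of these genes. Over the thinned cells the rank correlation with Bnip3 was 0.64 for Higd1a, 0.61 for Fam162a and 0.57 for Ero1l among 69 Kdm5b-high cells, and 0.34, 0.38 and 0.37 among 244 Kdm5b-low cells. Other genes of the higher set stood apart from Bnip3: the correlation was -0.14 for Slc39a1, -0.05 for Grb14 and 0.04 for Pgd among Kdm5b-high cells. These are descriptions over cells of 1 library that share its depth and free RNA.

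Kdm5b UMIs follow the class, with every cell of 0 or 1 UMI in the low class, so sorting cells by them describes the same contrast. Sorted so, the low oxygen list summed to 1143 CPM in the 128 cells with 0 UMIs, 1514 CPM in the 117 with 1, 1456 CPM in the 52 with 2 and 2493 CPM in the 47 with 3 or more. The median per cell differed less than these sums, at 822, 796, 939 and 1014 CPM from 0 to 3 or more UMIs. Median depth was 32921 UMIs per cell in cells with 3 or more and 29454 in cells with 0, and its part was not tested.

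Glycolysis genes were higher to a lesser extent. Of 19 listed, 12 reached 50 CPM, all but Pfkl in both classes, and 2 of these were at least 1.5-fold higher and 0 were lower. The median log2 ratio was 0.31 and 11 of the 12 lay above 0, also under each of 3 other scalings, with the median of all genes then at -0.01, -0.01 and -0.00. Over all 2581 genes at 50 CPM, 0.659% were at least 1.5-fold higher, 0.0775% were lower and 55.1% lay above 0. Hk2 (ENSMUSG00000000628, GRCm38 chromosome 6, 82725025 to 82774454, minus strand), the inducible hexokinase that traps glucose in the cell, had 151 CPM (136 to 167) in Kdm5b-high cells and 86.3 CPM (80.2 to 92.6) in Kdm5b-low cells, a log2 ratio of 0.81 (0.62 to 0.99). Its median was 2 UMIs per cell in both classes, and its 90th percentile 13 UMIs in Kdm5b-high and 6 in Kdm5b-low cells. Pfkl, a subunit of phosphofructokinase, the committed step of the pathway, stood at 54.2 CPM (45.4 to 64.3) in high cells against 32.5 CPM (28.9 to 36.5) in low cells, with a log2 ratio of 0.74 (0.43 to 1.04).

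The abundant enzymes of the lower pathway differed less but nearly all in that direction. Pgk1 had 1652 CPM in Kdm5b-high cells and 1236 CPM in Kdm5b-low cells (0.42, 0.37 to 0.47), Ldha, which makes lactate, 1181 CPM in high and 949 CPM in low cells (0.32), and Gapdh 3263 CPM in high and 2828 CPM in low cells (0.21). Ratios of 0.20 to 0.33 were those of Pkm, Tpi1, Aldoa, Gpi1, Eno1 and Pgam1, and Ldhb, the other lactate dehydrogenase subunit, stood at -0.03. Other genes of the pathway lay outside the count, with Aldoc and Pfkp at 0.62, Slc16a1 at 0.42, Pfkm at 0.28 and Hk1 at -0.13. Hk1 ran from -0.66 among deeper cells to 0.65 among shallower cells, and Pfkm stood at -0.30 among shallower cells. The transporters Slc2a1 and Slc16a3 lay under 50 CPM and had the largest ratios. Slc2a1, the main glucose carrier, had 43.6 CPM in high and 18.1 CPM in low cells (1.27, 0.90 to 1.63). The lactate exporter Slc16a3 had 28.8 CPM in high and 14.2 CPM in low cells (1.02, 0.57 to 1.45). Without the 3 cells highest for Slc2a1 in each class its log2 ratio was 0.68. Among Kdm5b-low cells alone, the shallower cells had a median ratio of -0.39 for this list over the deeper ones, and the high over low median was 0.54 among shallower cells and 0.18 among deeper cells, so its size moved with depth. Gapdh, Pgk1, Ldha, Tpi1, Aldoa and Eno1 have near-identical copies in the genome, and the sources used here do not say how shared reads were handled.

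**Figure D3:**
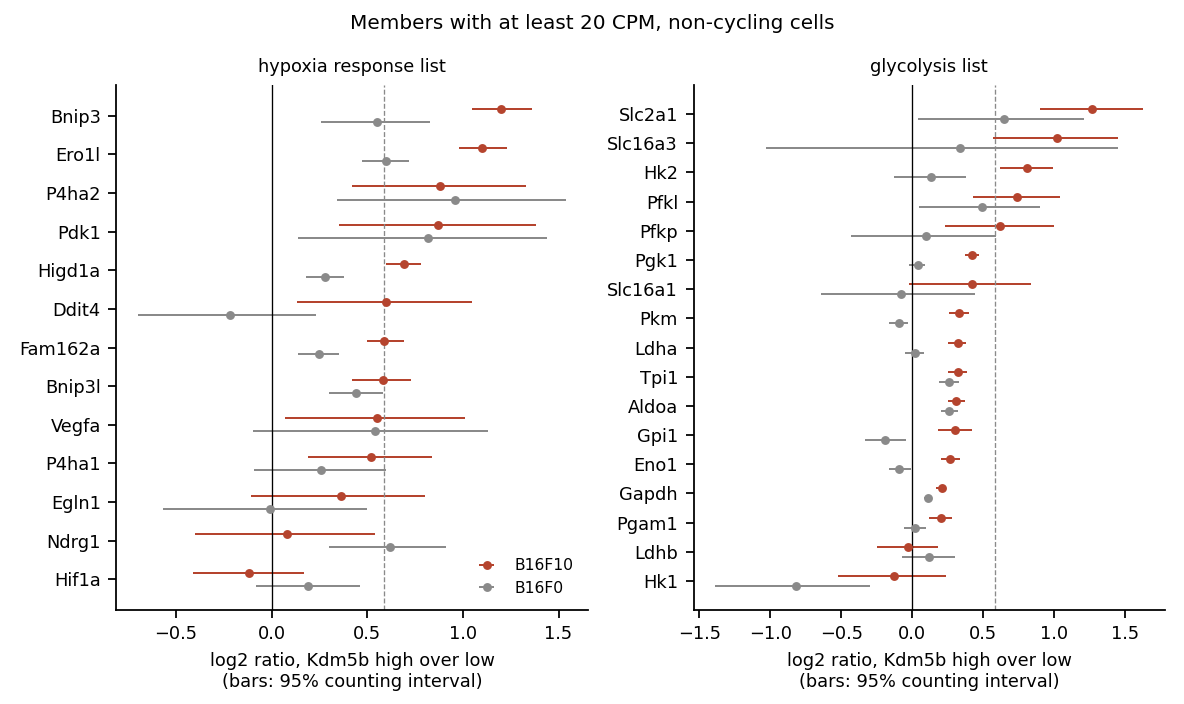
Each row is a member of the low oxygen list or the glycolysis list with at least 20 CPM in B16F10, with its log2 ratio, Kdm5b high over Kdm5b low, in non-cycling B16F10 cells (red, upper) and B16F0 cells (grey, lower). Bars are exact 95% intervals for counting error and the dashed line marks 1.5-fold. In B16F10 the transporters Slc2a1 and Slc16a3, Bnip3 and Ero1l stand highest, and Hif1a, Ldhb and Hk1 lie below 0.

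Among 16 immediate early genes listed, 3 were at least 1.5-fold higher and 0 lower, against 0.659% and 0.0775% of all 2581 genes. All 3 reached 50 CPM only in high cells, and of the 5 that reached it in one class or both, 2 did so in both, so this count and the median of the 5, 0.63, are set in part by that minimum. Summed over all 16 genes the level was 776 CPM in high cells and 606 CPM in low cells, a log2 ratio of 0.36 (0.28 to 0.43), of which Jund held 333 CPM in high and 271 CPM in low cells. Ier3, a stress-responsive survival gene, had 62.5 CPM in Kdm5b-high cells and 33.1 CPM in Kdm5b-low cells (0.92, 0.62 to 1.20). Atf3, a stress-induced transcription factor, had 62.1 CPM in high and 36.2 CPM in low cells (0.78, 0.49 to 1.06), and Jun, a subunit of the AP-1 transcription factor, had 74.0 CPM in high and 47.8 CPM in low cells (0.63, 0.37 to 0.89). The median per cell was 1 UMI in both classes for Ier3 and Atf3, and 2 UMIs in Kdm5b-high against 1 in Kdm5b-low cells for Jun. Klf6 stood at 0.32 and Jund at 0.30. Among members under 50 CPM, Fos had 30.0 CPM in high and 24.6 CPM in low cells (0.28), while Ier2 had 23.8 CPM in high and 28.6 CPM in low cells (-0.26), so the list was not of 1 direction. Over single cells Atf3 and Jun followed Bnip3 only weakly, with rank correlations of 0.20 and 0.18 among Kdm5b-high cells. Ier3, at 0.46, followed it more closely. Jun had a log2 ratio of 0.47 within cluster C3 alone, under the limit, and Ier3 had 0.48 without its 3 highest cells per class.

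The remaining genes at least 1.5-fold higher belong to several functions. Hmox1 (ENSMUSG00000005413, chromosome 8, 75093621 to 75100589, plus strand), the stress-induced heme oxygenase, had 112 CPM (99.3 to 126) in Kdm5b-high cells and 61.6 CPM (56.5 to 67.1) in Kdm5b-low cells, a log2 ratio of 0.86 (0.65 to 1.08), with a median of 2 UMIs per high cell and 1 per low cell. It was the 1 of 11 measured genes of the oxidative stress and iron list past the limit, and that list's median was 0.03. Slc39a1, a zinc importer, had 74.0 CPM in high and 39.9 CPM in low cells (0.89), and Grb14, an adaptor of the insulin receptor, 135 CPM in high and 86.4 CPM in low cells (0.65). Pgd, of the pentose phosphate pathway, had 54.2 CPM in high and 35.5 CPM in low cells (0.61), and Pgm2 had 62.9 CPM in high and 41.5 CPM in low cells (0.60). Kctd12 stood at 0.64 and Rnf19a, a ubiquitin ligase, at 0.60. Grb14 and Rnf19a were also higher in shallower low cells over deeper ones, at 0.88 and 1.34. Hist1h1c, which encodes a linker histone, had a log2 ratio of 0.88 (0.56 to 1.19), but 1 high cell held 48 UMIs of it, and without the 3 highest cells per class the log2 ratio was 0.23. The linker histone gene H1f0 had 497 CPM in high and 366 CPM in low cells (0.44, 0.35 to 0.54), and a ratio of 0.72 in shallower over deeper low cells.

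On the lower side, 2 genes passed the limit. Mbp, a myelin gene also active in cells of neural crest origin, had 43.6 CPM (35.7 to 52.7) in Kdm5b-high cells and 76.5 CPM (70.8 to 82.6) in Kdm5b-low cells, a log2 ratio of -0.81 (-1.12 to -0.52). Its median was 0 UMIs per cell in both classes, with a 90th percentile of 4 UMIs in Kdm5b-high cells and 8 in Kdm5b-low cells. Car6 (ENSMUSG00000028972, chromosome 4, 150187015 to 150201332, minus strand), a secreted carbonic anhydrase, stood at 60.8 CPM (51.4 to 71.4) in high cells against 102 CPM (95.4 to 109) in low cells, with a log2 ratio of -0.75 (-1.01 to -0.49). Both genes also differed by depth: among Kdm5b-low cells alone, the shallower cells over the deeper ones gave -0.75 for Mbp and -1.24 for Car6. Against Kdm5b-low cells matched on UMIs per cell, the high over low ratios were -0.79 for Mbp and -0.68 for Car6. Mbp stood at -1.59 without its 3 highest cells per class. Short of the limit, Cdkn1a, the inhibitor of cyclin-dependent kinases known as p21, had 225 CPM in Kdm5b-high cells and 304 CPM in Kdm5b-low cells (-0.43, -0.57 to -0.30). It too was lower in the shallower Kdm5b-low cells, at -1.12, and stood at -0.35 against matched cells.

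The other lists with at least 3 members at 50 CPM lay closer to the median gene, as the plot of list medians shows. Cholesterol synthesis had only 2 such members, with a median of 0.46, and is not in the plot. Over all 2581 genes at 50 CPM, 55.1% lay above 0, the base for the counts by sign below. Of 14 genes of the unfolded protein response at 50 CPM, 0 passed the limit in either direction, 12 lay above 0 and the median was 0.15. The chaperone gene Hspa5 led them at 335 CPM in high and 245 CPM in low cells (0.45, 0.33 to 0.57), and Hsp90b1 had 0.36. Of 25 proteasome subunit genes, 0 passed the limit, 19 lay above 0 and the median was 0.12, with Psmd2 at 0.48. Among the shallower cells alone the proteasome median was -0.01. Of 14 genes of the tricarboxylic acid cycle, 0 passed and the median was 0.03, with Pdhb, a subunit of pyruvate dehydrogenase, just under the limit at 74.8 CPM in high and 50.4 CPM in low cells (0.57). The 12 mitochondrially encoded transcripts at 50 CPM had a median of -0.05, and 48 nuclear genes of the respiratory chain had -0.03, with 0 past the limit in both. Ppargc1a, which drives mitochondrial biogenesis, had 233 CPM in high and 183 CPM in low cells (0.35, 0.20 to 0.48), but -0.02 among deeper cells.

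**Figure D4:**
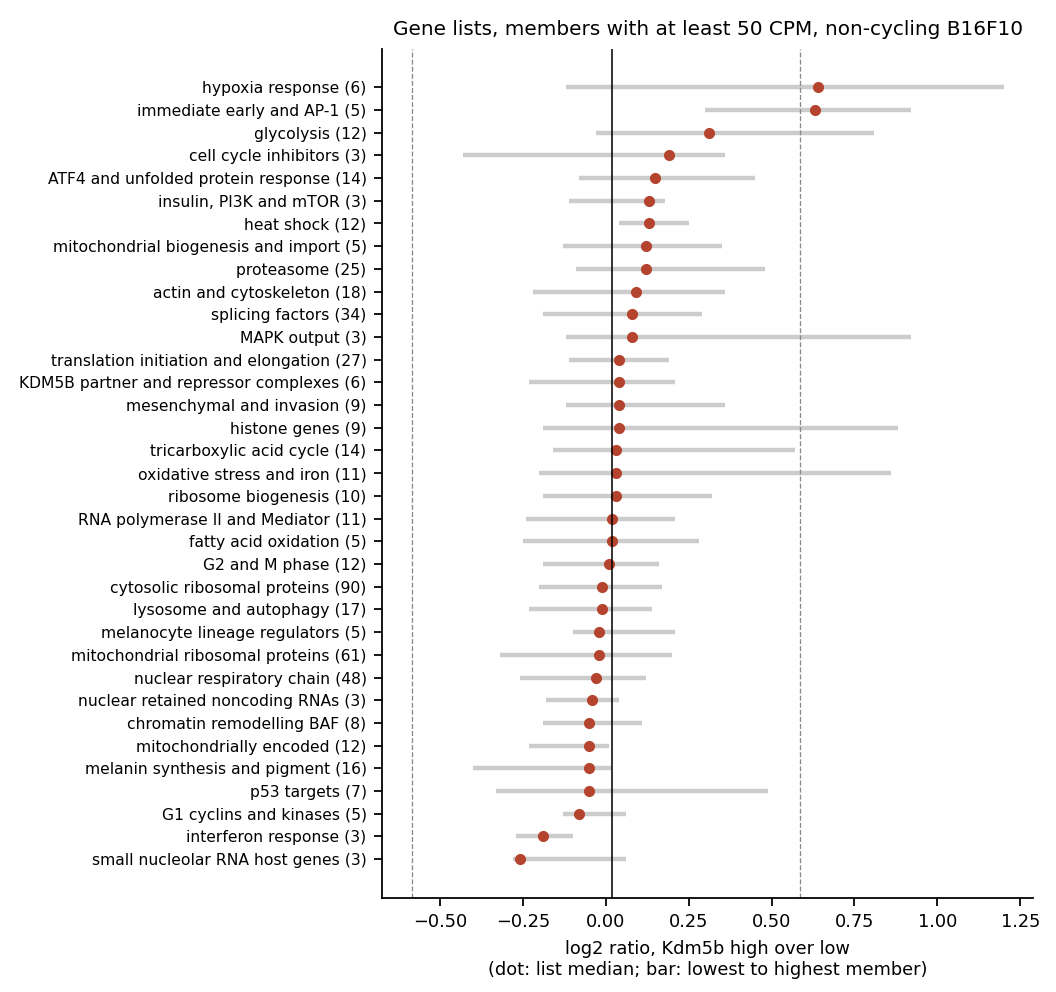
Each row is a gene list with at least 3 members at 50 CPM (their number in brackets), with the median log2 ratio, Kdm5b high over Kdm5b low, as a dot and the lowest to highest member as a bar, in non-cycling B16F10 cells. The solid line is the median of all genes, 0.02, and dashed lines mark 1.5-fold. The low oxygen and immediate early lists stand highest at 0.64 and 0.63, followed by glycolysis at 0.31, but of the 5 immediate early members 3 reached 50 CPM only in high cells.

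Genes of the melanocyte lineage and of the cell cycle gave small ratios. Of 16 pigment genes at 50 CPM, 0 passed the limit, 2 lay above 0, against 55.1% of all 2581 genes, and the median was -0.05. The melanin enzyme genes Tyrp1 and Dct stood at -0.02 and 0.01, Mlana at 1217 CPM in Kdm5b-high cells and 1445 CPM in Kdm5b-low cells (-0.25), and Mc1r, the receptor for melanocortin, at 102 CPM in high and 134 CPM in low cells (-0.40, -0.60 to -0.20). Mitf, the master regulator of the lineage, had 191 CPM in high and 205 CPM in low cells (-0.10, -0.25 to 0.05). Of 12 G2 and M phase genes at 50 CPM, 0 passed and the median was 0.01. Summed over the whole S phase list, most of it far under 50 CPM, the level was 680.1 CPM in Kdm5b-high cells and 814 CPM in Kdm5b-low cells (-0.26, -0.34 to -0.18). The proliferation marker Mki67 was near absent in both, at 3.70 CPM in high and 4.01 CPM in low cells. The paralog Kdm5a had 68.6 CPM in high and 57.0 CPM in low cells (0.27, 0.00 to 0.52), and 6 genes of complexes that work with KDM5B had a median of 0.04.

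In B16F0, of 2553 genes, 3 were at least 1.5-fold higher in Kdm5b-high cells (0.118%) and 3 were at least 1.5-fold lower (0.118%). The B16F0 classes differed more in make-up than those of B16F10. Median depth was 30563 UMIs per cell in high and 33914.5 in low B16F0 cells. Cluster C3 held 67.0% of high and 47.0% of low cells, and state 7 held 58.2% and 35.3%. The part of these differences in the ratios was not tested. The 3 higher genes were Ero1l, Arfgef3 and Maoa, so that Ero1l was the 1 gene in both sets, 5.88% of the B16F10 set and 33.3% of the B16F0 set. Of the 17 genes higher in B16F10, 16 had a ratio above 0 in B16F0, Pgd at -0.02 being the exception. The median of all 2553 genes in B16F0 was 0.03, and the share of them above 0 was not counted, so counts by sign have no base here. The ratio was smaller in B16F0 for 15 of the 17, which were chosen by their B16F10 values, and larger for 2. Grb14 had 20.6 CPM in high and 7.80 CPM in low B16F0 cells (1.40, 0.97 to 1.81, against 0.65 in B16F10), and Rnf19a 26.2 CPM in high and 16.8 CPM in low B16F0 cells (0.64, against 0.60). Ero1l had 207 CPM in Kdm5b-high and 137 CPM in Kdm5b-low B16F0 cells (0.60, 0.47 to 0.72), and Bnip3, much scarcer in that line, 40.1 CPM in high and 27.4 CPM in low cells (0.55, 0.26 to 0.83). Higd1a stood at 0.28 and Hk2 at 0.13. List medians in B16F0 were taken over the members at 50 CPM in non-cycling B16F10 cells, whatever their level in B16F0. The low oxygen list had a median of 0.36 in B16F0, with 6 of 6 members above 0, against 0.64 in B16F10, and the glycolysis list had 0.07 against 0.31. Mbp, at 187 CPM in high and 190.1 CPM in low B16F0 cells, gave -0.03 in B16F0, and Car6 gave -0.46 (-0.65 to -0.29). With 1 library per line the difference between the lines was not tested.

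Cycling B16F10 cells, 44 Kdm5b high and 1186 Kdm5b low, were set beside them after the data were seen. Of 2883 genes, 47 were higher by at least 1.5-fold (1.63%) and 44 lower by as much (1.53%). List medians were again taken over the members at 50 CPM in non-cycling B16F10 cells. The low oxygen list had a median of 0.66 in cycling cells, against 0.64 in non-cycling cells, with Bnip3 at 1.57 and Ero1l at 0.91. The median of all 2883 genes in cycling cells was 0.02. The glycolysis median in cycling cells was 0.12, and Atf3 and Jun, higher in non-cycling high cells, had ratios of -0.70 and -0.13. Median depth was 31740.5 UMIs per cell in cycling high cells and 36581 in cycling low cells. The median S phase score was -0.0464 in cycling high and 0.119 in cycling low cells, and the median G2/M score 0.198 and 0.0859. The part of depth and of cell cycle phase in these ratios was not tested.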

How the data were processed

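Single-cell 3' RNA libraries of B16F10 and B16F0 were made on the 10x Chromium platform (3' chemistry v2), per the labels. The submitters' processing notes name Cell Ranger 3.0.0, Seurat 3.0 and mm10, with no role or order. The authors deposited raw UMI counts per gene and cell, and a natural log table, which equals the natural log of 1 plus counts per 10000 UMIs (largest difference 6.22e-15) and served only for that check and for the Kdm5b class ranges. Classes and scores per cell (line, cycling and Kdm5b class, clusters, trajectory state, pseudotime, S, G2/M and MITF scores) are the authors' own, per the file headers. The non-cycling class equals S and G2/M scores at or below 0. The sources used here do not state filters on cells or the use of strand.

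Counts were summed per class and scaled to CPM. CPM values carry exact Poisson intervals, log2 ratios conditional binomial intervals and shares Clopper-Pearson intervals, all at 95%. A count of 0 allows up to 3 counts, 1.23 CPM in Kdm5b-high and 0.344 CPM in Kdm5b-low cells. A gene was called past 1.5-fold where its higher CPM was 50 or more. All deposited cells were kept, no doublet caller was run, and 0 barcodes of these classes were shared with the other library. Members and lists were chosen with earlier results of these data known. Named genes are the 15 highest and 15 lowest ratios among genes seen in at least 25% of cells of the higher class, the 3 largest ratios of each list and fixed melanoma genes, and genes outside that rule were named after their values were seen. Alternatives were TMM and DESeq2 scaling, library totals that leave out mitochondrial and ribosomal genes, averaged single-cell CPM, depth-matched low cells (154), thinning to 20815 UMIs (leaving out 8 Kdm5b-high and 23 Kdm5b-low cells), shallower and deeper cells around the Kdm5b-high median depth, other sets of cells, minimums and folds. The ratio step was tested on simulated data. R 4.3.3 with edgeR 4.0.16 and DESeq2 1.42.0, and Python 3.11.15 with scipy 1.17.1, numpy 2.4.6, matplotlib 3.10.9 and pandas 2.3.3, were used.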

Additional observations from a re-analysis of the deposited data

How the results depend on the processing

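Of 18 alternatives, 14 can move a ratio, and in those all 17 higher genes kept a ratio above 0 and both lower genes one below 0, although their number past 1.5-fold moved. These genes were picked by their ratios in the same cells, so keeping the sign was largely set in advance and is no independent check. The higher count of 17 became 40 among shallower cells, 27 within cluster C3, 7 without the 3 highest cells per gene, 55, 7 and 1428 at minimums of 20 and 100 CPM and none, and 2 at a fold of 2. The lower count of 2 became 40 among shallower and 13 among deeper cells, 4 with thinned cells, 4 against Kdm5b-low cells with no Kdm5b UMI, 7 within cluster C3, 7 without the 3 highest cells, 25, 1 and 2544 at minimums of 20 and 100 CPM and none, and 0 at a fold of 2. Fewer cells and lower minimums admit more counting error by construction, and leaving out 3 cells takes a larger share of 77 cells than of 267. TMM and DESeq2 scaling gave 13 and 14 of the 17 higher genes. The low oxygen median of 0.64 was 0.89 among shallower cells and 0.88 against cells with no Kdm5b UMI. The glycolysis median of 0.31 was 0.42 with single-cell means, 0.25 against depth-matched cells, 0.54 among shallower and 0.18 among deeper cells, 0.39 without the deepest 5%, 0.21 without the 3 highest cells and 0.43 against cells with no Kdm5b UMI. Bnip3 ranged from 0.80 to 1.80 and Ero1l from 0.82 to 1.44. Ngfr, a rare transcript at -1.16, turned to 0.18 among deeper cells, and the cause was not tested. The settings by Kdm5b UMI, cluster and trajectory state were added after seeing the data. No paired analysis was possible because both classes are cells of 1 library.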

Other observations

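Among genes under the 50 CPM minimum, named here after their values were seen, Selenbp1, a selenium-binding methanethiol oxidase, had 23.8 CPM in Kdm5b-high cells and 7.10 CPM in Kdm5b-low cells (log2 ratio 1.75, 1.20 to 2.29) from 58 UMIs in high and 62 in low cells. It was seen in 18.8% of thinned Kdm5b-high cells and 10.2% of thinned Kdm5b-low cells, and its ratio in B16F0 was 0.07 (-0.69 to 0.74). Among low cells alone, the shallower over the deeper cells gave -1.18 for it. Grhpr, a glyoxylate reductase, had 44.0 CPM in high and 22.6 CPM in low cells (0.96, 0.61 to 1.31) and 0.36 in B16F0. On the other side Phf12, a subunit of a Sin3 repressor complex, had 10.7 CPM in high and 21.2 CPM in low cells (-0.99, -1.64 to -0.39), and Lamc1, a laminin chain, 11.1 CPM in high and 21.4 CPM in low cells (-0.95, -1.59 to -0.36). Their ratios in B16F0 were -0.02 and 0.06. The 12 measured matrix genes summed to 52.2 CPM in Kdm5b-high and 76.4 CPM in Kdm5b-low cells (-0.55, -0.84 to -0.27).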
